A study of Mus musculus with 2 samples.

Results

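The genes examined here were the glucocorticoid receptor gene Nr3c1, the genes of 5 chaperones or cochaperones of the receptor (Hsp90aa1, Hsp90ab1, Ptges3, Fkbp4 and Fkbp5), of 2 coactivators (Ncoa1 and Ncoa2) and of 2 glucocorticoid-induced factors (Tsc22d3 and Klf15). These 10 genes, of 21000 protein-coding genes with a known RefSeq transcript, were listed by name for their place in the pathway, with earlier results of these data known. They were searched for binding of nuclear respiratory factor 1 (NRF1) in a chromatin immunoprecipitation sequencing (ChIP-seq) profile of skeletal muscle. ChIP-seq recovers DNA held by a protein with an antibody, and occupied sites stand out as peaks of reads over a control. The series has 1 group, wild-type male mice, 9 weeks old, with no treatment named in the labels. By its labels NRF1 antibody was used for each of 2 libraries, whereas a reporting summary lists the second as input DNA. Only 1 list of 3226 peaks was used, and all its peak names carry the title of the first library. The study reports a somewhat smaller number of NRF1 binding sites, and the reason for the difference is not known. No value below has a replicate error, so no difference between genes was tested. A reporting summary states at least 3 mice per condition but not how many were pooled in a library, and the tissue contains cells other than myofibers.

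The glucocorticoid receptor is a nuclear receptor that waits in the cytoplasm in a complex with the chaperone HSP90, the cochaperone p23 and an immunophilin. Binding of hormone brings it into the nucleus, where it attaches to DNA, recruits coactivators and changes transcription. In skeletal muscle its activation favours protein breakdown and is a cause of wasting under prolonged steroid treatment. NRF1 is a transcription factor that binds a GC-rich palindrome, mostly close to transcription starts, and is known for its control of genes of the respiratory chain. The study asked how the receptor, its coregulator LSD1 and NRF1 come together on target genes in muscle.

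Of the 10 genes, 2 had an NRF1 peak in the promoter, Hsp90aa1 and Ptges3. The receptor gene Nr3c1 had no promoter peak but carried 4 peaks inside the gene, each with its summit over a coding exon. Whether these 4 peaks are NRF1 binding to the gene in chromatin or come from spliced DNA of the receptor in a library, such as a plasmid or cDNA, was not tested. The remaining 7 genes, namely Hsp90ab1, Fkbp4, Fkbp5, Ncoa1, Ncoa2, Tsc22d3 and Klf15, had no peak in the promoter or in the gene. A promoter peak was one whose summit, the position of highest signal, lay between 1000 bp before and 100 bp after a known transcription start. Such a peak was present at 13.4% of all protein-coding genes, and 2 of 10 genes is close to that share. A gene-body peak outside promoters was present at 1.82% of genes, and a summit over a coding exon outside promoters at 0.324%. The counts among the 10 genes were not tested against these shares.

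Hsp90aa1 encodes the stress-inducible form of cytosolic HSP90, the chaperone that keeps the receptor ready to bind hormone. Its promoter peak lay on chromosome 12 from 110696251 to 110696877 in mm10, with the summit 138 bp before the only known start. Fold enrichment, which divides the summit's signal by the control background, is used below as deposited. It was 23 for this peak, rank 222 of 3226 peaks. The −log10 q-value was 83.9. This peak was among the widest, with 627 bp against a median of 290 bp over all peaks, and 96.7% of peaks were narrower. No other known gene had a start sharing it.

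The peak of Hsp90aa1 lay over 3 copies of the NRF1 motif. The motif searched was GCGCATGCGC, a palindrome that reads alike on both strands, with at most 1 mismatch. An exact copy was centred at -218.5 bp from the start. A copy with 1 mismatch was centred at -141.5 bp, only 3.5 bp from the summit, and another with 1 mismatch at -44.5 bp. All 3 copies lay within 100 bp of the summit, the nearest being the imperfect copy at the summit itself and not the exact palindrome, whose centre was 80.5 bp away. Within 100 bp of the summit the GC content was 76.1% and the CpG ratio, observed CpG over that expected from base composition, was 1.12. The median CpG ratio around the summits of all promoter peaks was 0.926.

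Ptges3 encodes p23, the cochaperone that stabilizes the hormone-binding state of the receptor with HSP90. Its promoter peak lay on chromosome 10 from 128058739 to 128059096, with the summit 26 bp before the start. Fold enrichment was 12.5, rank 1264 of 3226, and −log10 q was 33.6. This was near the middle of the promoter peaks, whose fold enrichments had quartiles of 7.9 and 16.4 and a median of 11.1. The peak held 1 copy of the motif, GCGCACGCGC, with 1 mismatch, centred at -19.5 bp from the start and 6.5 bp from the summit. The 120 bases before the start, at chr10:128058862-128058981 on the plus strand, are shown because the summit falls within them, next to that copy, which is in capitals. Sequences are from the RefSeq assembly GRCm38.p6, the build of mm10, and are written 5′ to 3′ toward the start.
Ptges3: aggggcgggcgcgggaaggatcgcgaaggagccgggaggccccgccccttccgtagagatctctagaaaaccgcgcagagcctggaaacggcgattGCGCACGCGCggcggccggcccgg

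Both promoter peaks thus held the NRF1 motif within 100 bp of the summit, as did 65.9% of the 2607 promoter peaks of the list. They differed in strength, with Hsp90aa1 above 93.1% of all peaks in fold enrichment and Ptges3 above 60.8%. The number of motif copies also differed, 3 against 1, and only Hsp90aa1 had an exact copy. CpG ratios around the summits were alike, 1.12 and 1.15.

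**Figure D1:**
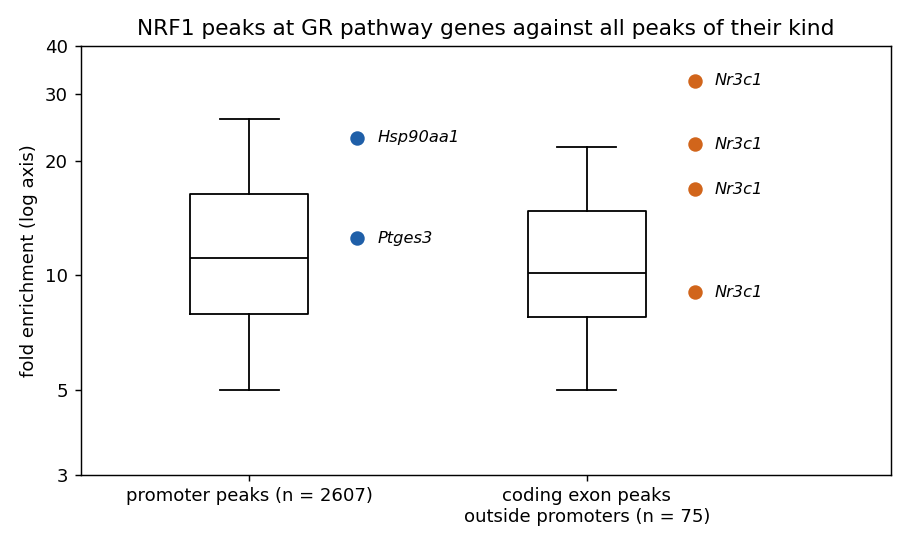
Fold enrichment (log axis) of the 2 promoter peaks of Hsp90aa1 and Ptges3 and of the 4 coding exon peaks of Nr3c1 (points), beside box plots of all 2607 promoter peaks and all 75 coding exon peaks outside promoters. Boxes span the quartiles with the median as a line, and whiskers reach the 5th and 95th percentiles; Hsp90aa1, at 23, lies above the upper quartile of promoter peaks and the strongest Nr3c1 peak, at 32.4, is the highest of the coding exon peaks.

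Hsp90ab1 encodes the constitutive form of cytosolic HSP90, the close relative of Hsp90aa1. It had no peak in its promoter, and the nearest summit was 113064 bp before its start. That summit belonged to a peak at the promoters of Mrpl14 and Tmem63b, with a fold enrichment of 11.8. No stretch of the Hsp90ab1 promoter came closer to the motif than 3 mismatches. The promoters of both HSP90 genes were GC-rich, with 59.9% GC for Hsp90aa1 and 60.6% for Hsp90ab1 over the promoter window. Their CpG ratios were 0.841 and 0.594. The 240 bases before the start of Hsp90ab1, at chr17:45573262-45573501 on the minus strand, are shown because they contain no copy of the motif, and hence no capitals, in contrast to those of Ptges3.
Hsp90ab1: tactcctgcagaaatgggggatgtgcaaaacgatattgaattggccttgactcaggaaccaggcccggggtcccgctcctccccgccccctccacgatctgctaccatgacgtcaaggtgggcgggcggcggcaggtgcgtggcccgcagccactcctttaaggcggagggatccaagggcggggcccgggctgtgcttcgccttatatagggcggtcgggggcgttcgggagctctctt

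GC content was 64.6% in these 240 bases of Hsp90ab1 and 72.5% in the 120 bases of Ptges3, and CpG ratios were 0.763 and 1.22. The HSP90 genes thus differed in the peak, in the motif and in the CpG content of the promoter together. Which of these goes with which was not tested.

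Fkbp4 and Fkbp5 encode the immunophilins FKBP52 and FKBP51, which compete for a place on HSP90 in the receptor complex. FKBP52 favours and FKBP51 hinders the passage of the receptor to the nucleus, and Fkbp5 is itself a gene that glucocorticoids induce. Neither had a promoter or gene-body peak. The nearest summit to Fkbp4 lay 13937 bp after its start, outside the gene, over a coding exon of Itfg2. Its fold enrichment was 15.2, and the motif occurred 2 times around it. For Fkbp5 the nearest summit was 136377 bp before the start, at the promoter of Srpk1, with a fold enrichment of 16.8. CpG ratios of the promoters were 0.695 for Fkbp4 and 0.653 for Fkbp5, on either side of the median of 0.691 for all genes with a promoter peak.

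Ncoa1 and Ncoa2 encode the p160 coactivators SRC-1 and GRIP1, which the hormone-bound receptor recruits to DNA. Neither gene had a peak in its promoter or body, although both genes are long. The nearest summit to Ncoa1 was 242916 bp after its start, in the promoter of Cenpo, where fold enrichment was 24. The nearest summit to Ncoa2 was 215874 bp before its start, in the promoter of Tram1, with a fold enrichment of 10.8. CpG ratios of their promoters were 0.767 for Ncoa1 and up to 0.78 for Ncoa2, both above the median of genes with a promoter peak.

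Tsc22d3 encodes GILZ, a leucine zipper protein that carries part of the anti-inflammatory response to glucocorticoids. It had the most distant summit of the 10 genes, 1789967 bp before a start, at the promoter of Acsl4 on chromosome X, with a fold enrichment of 10.5. Klf15 encodes a zinc finger factor that glucocorticoids induce in muscle and that promotes the breakdown of branched-chain amino acids. Its nearest summit was 93070 bp before the start, at the promoter of Zxdc, with a fold enrichment of 22.9. Neither target gene had a peak in its promoter or gene body. Among the 3 glucocorticoid-induced genes of the set, Fkbp5, Tsc22d3 and Klf15, none had a promoter peak, beside 13.4% of all protein-coding genes. A set of 3 genes is too small to tell such an absence from that share.

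**Figure D2:**
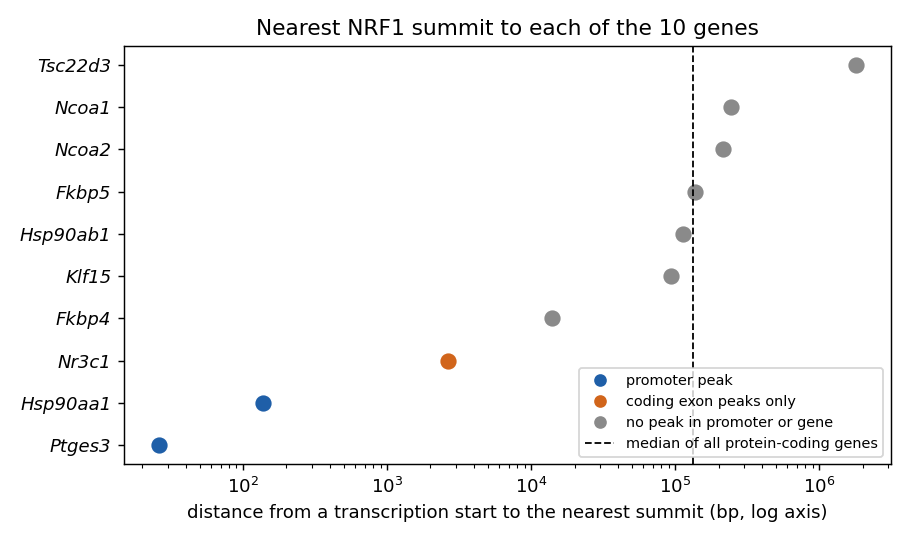
Distance in bp (log axis) from a known transcription start of each of the 10 genes to the nearest NRF1 summit anywhere on its chromosome, coloured by whether the gene had a promoter peak, coding exon peaks only, or neither. The distances run from 26 bp at Ptges3 to 1789967 bp at Tsc22d3, and the dashed line marks the median of all protein-coding genes, 133136 bp.

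The median distance from a start to the nearest summit was 103067 bp over the 10 genes and 133136 bp over all protein-coding genes. A summit within 10 kb was present for 3 of the 10 genes, Ptges3, Hsp90aa1 and Nr3c1, and for 17.8% of all genes. The limit of the promoter window did not matter to the count. The gene just inside it, Hsp90aa1, had its summit at 138 bp, and the gene just outside it, Nr3c1, at 2664 bp after a start. The neighbouring genes named with these distances were chosen after their values were seen.

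Besides Hsp90ab1, 6 genes had no peak, and they are shown with the 30 bases around the closest match to the motif in their promoters, because they show how far each was from it. Capitals mark the 10 bases compared with the motif, on the strand of the gene. Klf15 had 2 mismatches, at chr6:90462442-90462471, and the other 5 had 3. These lie at chr6:128438635-128438664, chr17:28486102-28486131, chr12:4477270-4477299, chr1:13374108-13374137 and chrX:140600482-140600511.
Klf15: agaccggagaGCGCGTGGGCagcgggaggg
Fkbp4: gcgcggatagCCGGGTGCGCgagcctggag
Fkbp5: gcgctgcccgGCGCACTAGCcggcttgcgg
Ncoa1: aggggtgaggGCGGAGCCGCgagtgggtgg
Ncoa2: gtgtctctctCCGCAAGTGCagagccgcgg
Tsc22d3: ctcactctgcGTGCGTGCGGgctgctgggc

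Across the 10 genes the presence of a promoter peak went with the closest match. Hsp90aa1 had an exact copy, and of the 368 genes with an exact copy in a promoter 89.4% had a promoter peak. Ptges3 had a copy with 1 mismatch, and of the 2180 genes at that distance 73% had a peak. Klf15 and Nr3c1 came within 2 mismatches, where 13.9% of 5275 genes had a peak. The other 6 genes came within 3 mismatches, where 1.44% of 10406 genes had one. The motif with at most 1 mismatch was present in a promoter of 12.1% of all genes, or 2548. Each of the 10 genes was thus on the side that most genes with the same closest match were on. The CpG ratio of the promoter alone did not order the 10 genes in the same way, since Nr3c1 reached 1 without a promoter peak.

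**Figure D3:**
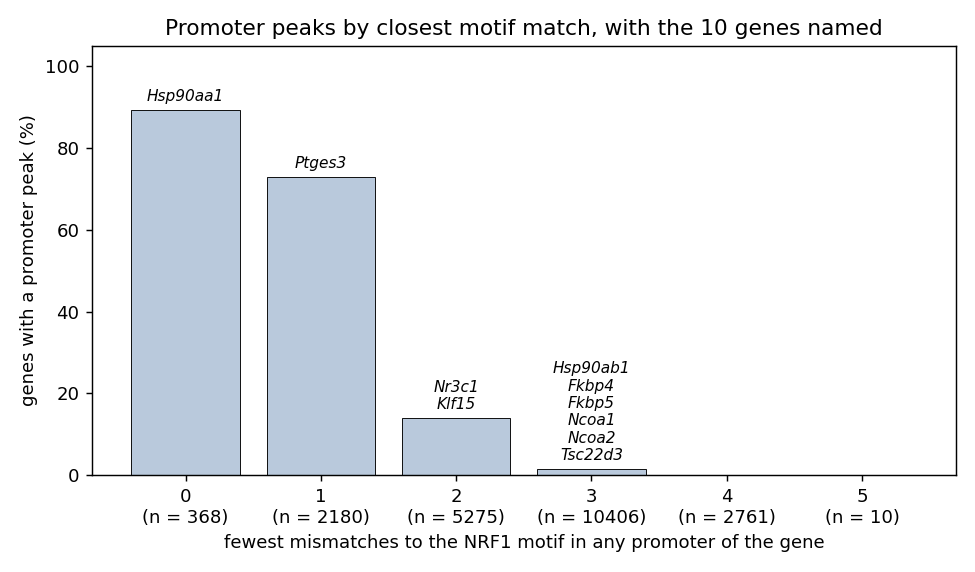
Share of protein-coding genes with an NRF1 promoter peak (vertical axis, %) by the fewest mismatches to the 10-base motif in any promoter of the gene, with the number of genes under each bar. Names above a bar are those of the 10 genes in that class, of which only Hsp90aa1, with no mismatch, and Ptges3, with 1, had a promoter peak.

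Promoters were also searched on both strands for the glucocorticoid response element, to which the receptor itself binds, and for the heat shock element, which is known from chaperone promoters. The former was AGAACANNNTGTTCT with at most 2 mismatches, and it was found in a promoter of 9.03% of all genes. Of the 10 genes only Ptges3 had a match, with 2 mismatches, centred at -727 bp. For the induced genes the fewest mismatches were 3 at Klf15 and 4 at Fkbp5 and Tsc22d3. These letters are absent from this window only, and nothing follows from that about binding of the receptor. The heat shock element searched was GAANNTTCNNGAA. An exact match was found at 2.29% of genes and, among the 10, at Hsp90aa1 alone, centred 2 bp after its start. With at most 1 mismatch it was found at 27% of genes and at 6 of the 10, namely Hsp90aa1, Hsp90ab1, Ptges3, Fkbp4, Fkbp5 and Tsc22d3. A match of letters is a description and not a site.

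Nr3c1, which spans 108877 bp, has 5 known starts, and none of their promoters held a summit. The distances from these starts to the nearest summit were 32806, 4298, 4055, 3161 and 2664 bp, in each case to a summit downstream. CpG ratios of the promoters rose from 0.255 at the most upstream start to 1 at the last one, and GC content from 46.2% to 74.1%. The median CpG ratio of all genes with a promoter peak was 0.691, so 3 of the 5 promoters, at 0.707, 0.953 and 1, were above it. The closest matches to the motif had 2 mismatches at 3 of the starts and 3 mismatches at the other two.

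The 4 peaks of Nr3c1 lay on chromosome 18 and the gene is on the minus strand. In the order of transcription, the first extended from 39486508 to 39486733, and its fold enrichment was 22.1 with a −log10 q of 52. The second, from 39486031 to 39486332, had the highest fold enrichment of the 4, 32.4, and a −log10 q of 85.7. Both lay entirely within exon 2, the long exon of 1248 bp that begins the coding sequence. The third, from 39424325 to 39424542, covered exon 4, of 117 bp, from end to end, with a fold enrichment of 16.8 and a −log10 q of 31. It reached 43 bp beyond the exon on the 5′ side and 58 bp on the 3′ side. The fourth, from 39414441 to 39414680, was the weakest, at a fold enrichment of 9.03 and a −log10 q of 14.3. It covered the start of exon 9, the last one, and reached 46 bp into the intron before it.

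Measured along the 2379 bases of the spliced coding sequence, the 4 summits lay at positions 618, 1039, 1469 and 2304. The coding sequence takes up 2.19% of the gene, and no peak had its summit in an intron. Of the 8 coding exons 3 held a summit and 5, all between 131 and 276 bp long, held none. Fold enrichment placed the 4 peaks at ranks 38, 260, 670 and 2023 of the list. Among the 75 peaks over coding exons outside promoters they held ranks 1, 4, 11 and 43. The median fold enrichment of those 75 peaks was 10.1, with quartiles of 7.79 and 14.8.

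None of the 4 peaks of Nr3c1 had the NRF1 motif within 100 bp of the summit, and the closest stretches there had 4 or 5 mismatches. Of the 75 coding exon peaks 65.3% held the motif. CpG ratios around the 4 summits were 0.267, 0.208, 0.396 and 0.15, against a lower quartile of 0.708 for the 75 coding exon peaks. GC content there was 36.8 to 47.3%, whereas the median over coding exon peaks was 68.2%. In sequence the peaks of Nr3c1 thus differed from both promoter peaks described above, whose GC content was 76.1% and 73.1%.

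Of all protein-coding genes, 20932 had no summit over a coding exon outside promoters and 66 had a single one, whereas Nr3c1 had 4. Its 4 peaks thus had summits on coding exons alone, with none in an intron, and none had the motif. Signal from spliced receptor DNA in a library was not tested as a source of these peaks, since that needs reads across exon junctions and a list of peaks holds none. Their fold enrichments are therefore given as deposited and not as occupancy of the gene by NRF1.

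**Figure D4:**
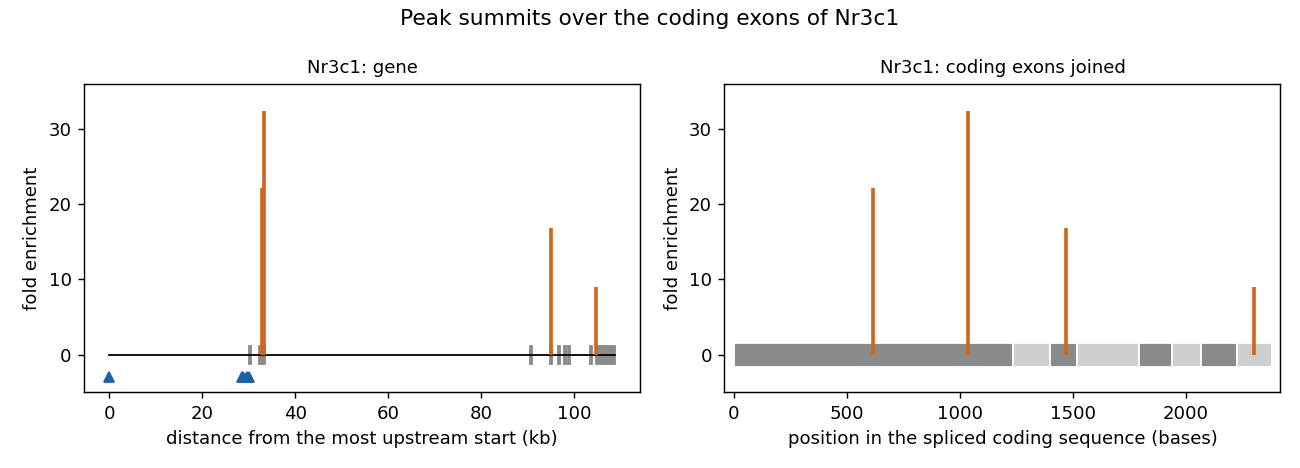
Peaks over Nr3c1, drawn along the gene in kb from the most upstream start (left) and along the joined coding exons in bases (right). Grey boxes are exons (in alternating shades at right), blue triangles are known starts and orange lines are summits, with fold enrichment as their height; the 4 summits all stand on coding exons and none in an intron.

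The other genes of the pathway were taken from 5 lists that include the 10 genes where they belong. In the list of chaperones and cochaperones of the receptor, 8 of 22 genes had a promoter peak, or 36.4%, beside 13.4% of all genes. Besides Hsp90aa1 and Ptges3 these were Hspa4 (fold enrichment 16.8), Hspa8 (16.3) and Bag1 (16.3), the phosphatase gene Ppp5c (9.67), Hsp90b1 (7.62) and Dnajb1 (5.69). Hspa8 and Hspa4 encode a constitutive HSP70 and an HSP70 relative that exchanges nucleotide, and BAG1 releases clients from HSP70. The summit of Hspa8, 352 bp before the start, was the most distant of the 8. The motif was present within 100 bp of the summit at Hsp90aa1, Ptges3, Ppp5c, Bag1 and Hspa8 and not at Hsp90b1, Hspa4 and Dnajb1. The peak of Bag1 also lay in the promoter of Chmp5, and that of Hsp90b1 in the promoter of Ttc41. The median fold enrichment of the 8 was 14.4, beside 11.4 for all genes with a promoter peak, and Hsp90aa1 had the highest. No promoter peak was found at the other 14 genes, among them Stip1, Cdc37 and St13, which load clients onto HSP90 or link it to HSP70.

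Of 27 coregulator genes, 6 had a promoter peak, or 22.2%, and none of them was among the 10 genes. Smarca4, the gene of the chromatin remodeller BRG1, had a fold enrichment of 37.5, and Ehmt1, the gene of a histone H3 lysine methyltransferase, of 31. Both exceeded every peak of the chaperone list. The histone deacetylase gene Hdac2 followed with 12.6 and the arginine methyltransferase gene Carm1 with 9.45. The peaks at Hdac3 and at Kdm1a, which encodes LSD1, were weak, with fold enrichments of 4.49 and 4.29 and −log10 q-values of 2.28 and 2.84. The third p160 coactivator gene, Ncoa3, had no promoter peak either, and its nearest summit was 5255 bp from a start. Among the receptor's other partners without a promoter peak were the acetyltransferase genes Crebbp and Ep300 and the corepressor gene Ncor1. A summit lay 1139 bp from a start of Ncor1, just outside the promoter window. Trim28, which had no promoter peak either, had a gene-body peak with its summit 200 bp from a start.

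Of 32 glucocorticoid-responsive muscle genes, 4 had a promoter peak, or 12.5%, close to the share of all genes. They were Foxo3 (fold enrichment 17.3), Sesn1 (15), the clock gene Per1 (14.8) and Klf9 (6.97). The peak of Sesn1 contained an exact copy of the motif, lay 678 bp before the start and was shared with the promoter of Cep57l1. Klf9, a relative of Klf15, thus had a promoter peak, with 2 mismatches to the motif at best, while Klf15 had none. Of 16 genes of hormone handling and nuclear import, 2 had a promoter peak, or 12.5%, and both encode importin alpha proteins, Kpna1 (19.3) and Kpna3 (11.1). Hsd11b1 and Hsd11b2, whose enzymes interconvert active and inactive glucocorticoid, had none, nor had H6pd, whose enzyme supplies NADPH to that of Hsd11b1. Of 6 steroid receptor genes, only Nr3c2, the gene of the mineralocorticoid receptor, had a promoter peak, with a fold enrichment of 6.45 and the summit 19 bp before the start.

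**Figure D5:**
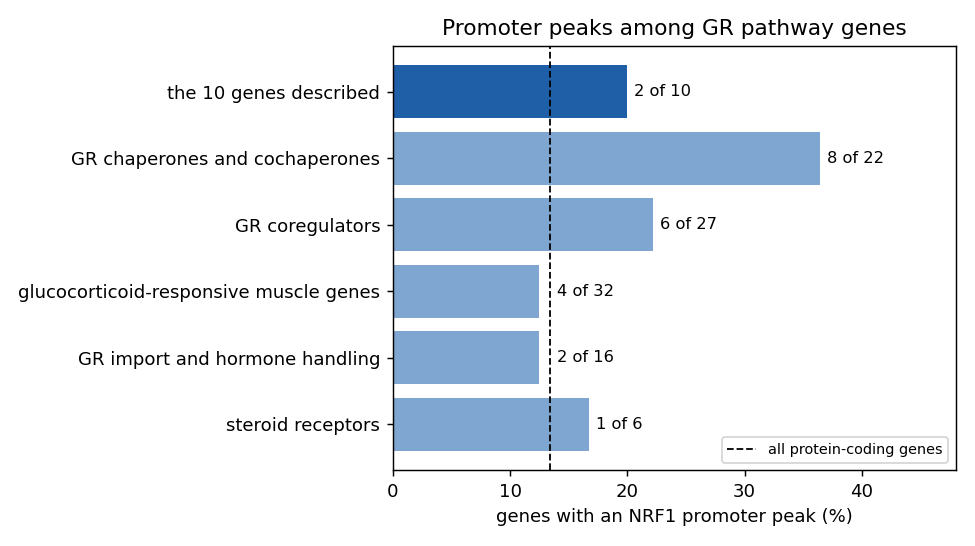
Share of genes with an NRF1 promoter peak (horizontal axis, %) among the 10 genes and in the 5 pathway lists, with the counts beside the bars. The dashed line marks the 13.4% of all protein-coding genes, and the chaperone list reaches furthest past it, at 36.4%.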

How the data were processed

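Peaks were analysed as deposited, in 1 list in narrow-peak layout for 1 group of 2 libraries. According to the study's methods the authors mapped reads to mm10 with Bowtie, kept unique reads and called peaks with MACS2 against input DNA. Fold enrichment, a ratio, and the −log10 q-value of each peak are the values deposited by the authors. The methods name the broad option of MACS2 and a blacklist of a human build. A q-value above 0.01 was found for 7 peaks. Read depth is unknown, so a gene without a peak may hold a site below the threshold, and no interval was computed.

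Starts, exons and sequence were those of 45756 known RefSeq transcripts of GRCm38.p6. All 102 genes of the pathway lists matched by symbol. Gene-body peaks had their summit between the ends of a gene and outside every promoter. CpG ratios are observed over expected CpG, and for genes with several starts the highest ratio is given unless stated. Motifs were searched from 1000 bp before to 100 bp after a start, or within 100 bp of a summit. Peak assignment was tested on simulated data. Python 3.11.15, numpy 2.4.6 and matplotlib 3.10.9 were used. Alternatives changed the peak threshold, the promoter window, the starts and the motif. The genes described were all 10 plus listed genes with a promoter peak. Some items of the lists and sequences are not reported here. The 10 genes and the lists were chosen with earlier results of these data known.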

Additional observations from a re-analysis of the deposited data

How the results depend on the processing

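Of 50 alternative values for 10 counts, 49 stayed within 1.5 times the count given. Promoter peaks at 2 of the 10 genes were found under each alternative run for them. These included a q-value of at most 1e-05, a fold enrichment of at least 5, predicted starts and wider promoters. With fold enrichments of 23 and 12.5 and −log10 q-values of 83.9 and 33.6, the 2 peaks could not be lost at these settings. Their stability is therefore no test of them. Coding exon peaks at 1 gene were found with those thresholds, with predicted starts and with any overlap of peak and exon, and other promoter windows were not run for them. The thresholds could not remove these either, since the weakest had a fold enrichment of 9.03 and a −log10 q of 14.3. With no mismatch allowed, the number of genes with the motif at the promoter peak fell from 2 to 1, since only Hsp90aa1 has an exact copy. Within 50 kb of a start, 4 genes had a summit, Fkbp4 being the addition. The coregulator count lay between 4 and 8: Kdm1a and Hdac3, whose fold enrichments are 4.29 and 4.49, are lost at a fold enrichment of at least 5. With 1 list of peaks, leaving out each replicate could not be done. No paired analysis was possible because only 1 group exists. As read depth is unknown, weak sites may have been missed at genes without a peak.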

Other observations

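Peaks as poor in CpG as those of Nr3c1 were rare in the list. Of 3226 peaks, 84, or 2.6%, had a CpG ratio no higher than 0.396, the highest of the Nr3c1 peaks, and 18 of them lay in promoters. A closest stretch with at least 4 mismatches to the NRF1 motif was seen at 64 peaks, or 1.98%. Both features together were found at 16 peaks, none of them in a promoter. Of these 16, 4 were those of Nr3c1. These sets were chosen after the values of Nr3c1 were seen.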
